A study of Mus musculus with 16 samples.

Results

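The rapid immediate early genes studied here were Arc, Fos, Fosb, Junb, Egr1, Egr2, Egr3, Egr4, Npas4 and Nr4a1, taken by symbol as a list of 10 of the 16593 genes named on the array. They were read by 11 of the 25697 probes, since Npas4 has 2 probes. A probe was tested when its signal stood above the negative control beads (detection p of 0.05 or less) on all 16 arrays, which left 8 of the 10 genes among 8419 genes tested. These genes, and the other gene lists below, were chosen with earlier results of these data known. Their counts beside the share of all genes are therefore a description and not a test.

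Left and right medial prefrontal cortex (mPFC), infralimbic and prelimbic areas included, of male C57BL/6 mice (C57BL/6 J in the methods) was hybridized to 16 Illumina MouseRef-8 v2 arrays. Defeated mice, 8 weeks old, met an aggressive CD-1 mouse daily for 10 days, while control mice were housed alike but not attacked. Resilient mice had an interaction ratio, the time near a CD-1 mouse over the time near the empty cage, above 1 and susceptible mice below 1. Mice with intermediate ratios close to 1 were excluded before the arrays. Control mice gave 2 arrays per side, resilient mice 3 and susceptible mice 3, and the labels name no engineered allele. All mice had taken the social interaction test a day before the tissue was frozen, so the control animals had also met an unfamiliar CD-1 mouse. RNA of individual tissues was combined in equal amounts before hybridization, and which mice are on which array is not stated, so the spread between arrays, and every p-value here, may be technical or between pools and not between mice.

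Immediate early genes are transcribed within minutes of calcium entry into an active neuron and without new protein synthesis. Their promoters hold factors such as CREB and SRF already bound, and kinases that respond to calcium activate CREB and the partners of SRF when the stimulus arrives. Most of their products are transcription factors: Fos, Fosb and Junb form the AP-1 dimers, the Egr proteins are zinc finger factors, and Nr4a1 is an orphan nuclear receptor. Npas4 is a neuron-specific factor driven mainly by calcium, while Arc acts at the synapse, where it promotes the removal of AMPA receptors. In cortex their mRNAs are widely used as a mark of recent activity, with Egr1 known for a high level even in undisturbed animals.

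The promoters of 4 of these genes are shown. Fos and Npas4 were lower than control in all defeated groups, and Egr4 and Junb differed between the sides of susceptible mice. Fos also differed between those sides and Egr4 also from control, so these are not separate classes of genes. Each run is the 250 bases before the RefSeq start (GRCm38.p6), with capitals on the core of the cyclic AMP response element, CGTCA read on either strand, and on the TATA box letters TATAA.
Fos, chr12:85473640-85473889, plus strand: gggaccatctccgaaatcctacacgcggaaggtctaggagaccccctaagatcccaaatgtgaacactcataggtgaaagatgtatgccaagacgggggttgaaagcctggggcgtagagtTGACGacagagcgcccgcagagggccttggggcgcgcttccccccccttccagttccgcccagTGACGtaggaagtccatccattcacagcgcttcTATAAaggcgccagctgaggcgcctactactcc
Npas4, chr19:4989972-4990221, minus strand: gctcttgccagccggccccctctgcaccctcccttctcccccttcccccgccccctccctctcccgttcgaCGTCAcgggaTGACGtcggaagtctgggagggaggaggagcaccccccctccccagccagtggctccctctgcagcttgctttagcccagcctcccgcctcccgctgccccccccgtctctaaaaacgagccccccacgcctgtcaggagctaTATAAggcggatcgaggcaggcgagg
Egr4, chr6:85513590-85513839, minus strand: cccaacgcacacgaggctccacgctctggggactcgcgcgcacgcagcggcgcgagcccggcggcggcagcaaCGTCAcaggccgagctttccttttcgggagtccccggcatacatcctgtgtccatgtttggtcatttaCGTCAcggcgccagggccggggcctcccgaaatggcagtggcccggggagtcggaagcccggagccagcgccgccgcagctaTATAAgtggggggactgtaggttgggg
Junb, chr8:84978749-84978998, minus strand: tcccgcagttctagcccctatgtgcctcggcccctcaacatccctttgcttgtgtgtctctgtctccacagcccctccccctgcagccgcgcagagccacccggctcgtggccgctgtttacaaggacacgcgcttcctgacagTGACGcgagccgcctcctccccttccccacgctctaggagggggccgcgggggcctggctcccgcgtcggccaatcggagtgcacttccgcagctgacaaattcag
The Fos, Npas4 and Egr4 windows each held 2 CGTCA cores and a TATAA close to the start, and the Junb window held 1 core and no TATAA. In the Npas4 window the first bases of its pair of cores lie 179 and 169 bases before the start. Of the 10 genes, 7 had a promoter entry, and Arc, Egr1 and Egr3 are named only. Among the others, Fosb held 1 core and Nr4a1 held 4. A CArG box, the sequence bound by SRF, was in the windows of 4 of the 5 listed Egr2 starts, and some of these windows overlap and hold the same box. No other window of these genes held it, and sites further than 250 bases before a start were not searched. The whole element, TGACGTCA, which contains the core on both strands, was in no window of these genes. Searched on both strands in the same way, 17.8% of 32851 RefSeq windows held the core, 1.55% the whole element, 1.47% a CArG box and 22.8% TATAA, and a match is a description of the letters and not of binding.

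The genes covered nearly the full range of the array. Deposited signals, given here as average bead intensity without background subtraction, were highest for Egr1, at 8770 to 13722, followed by Arc at 1152 to 2706, Egr4 at 799 to 1696, Fos at 632 to 1387 and Junb at 517 to 918. Signals of different probes are not levels that can be set against each other, so this order describes the probes. Fosb ran from 218 to 393, Egr2 from 191 to 388 and the Npas4 probe that was tested from 173 to 452, all well above the detection limit on every array. Egr3 lay at the limit, with signals of 83.0 to 128.5, and was detected on 14 arrays. It was missing on susceptible left replicate 3, at a detection p of 0.0965, and on susceptible right replicate 2, at 0.0752. Nr4a1 was detected on 0 of 16 arrays (signal 69.0 to 95.1, detection p 0.104 to 0.960), and the other Npas4 probe on 2 of 16 (control right replicate 1 and resilient right replicate 1), so no change is given for either. Non-detection at this signal does not show that the RNA was absent.

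**Figure D1:**
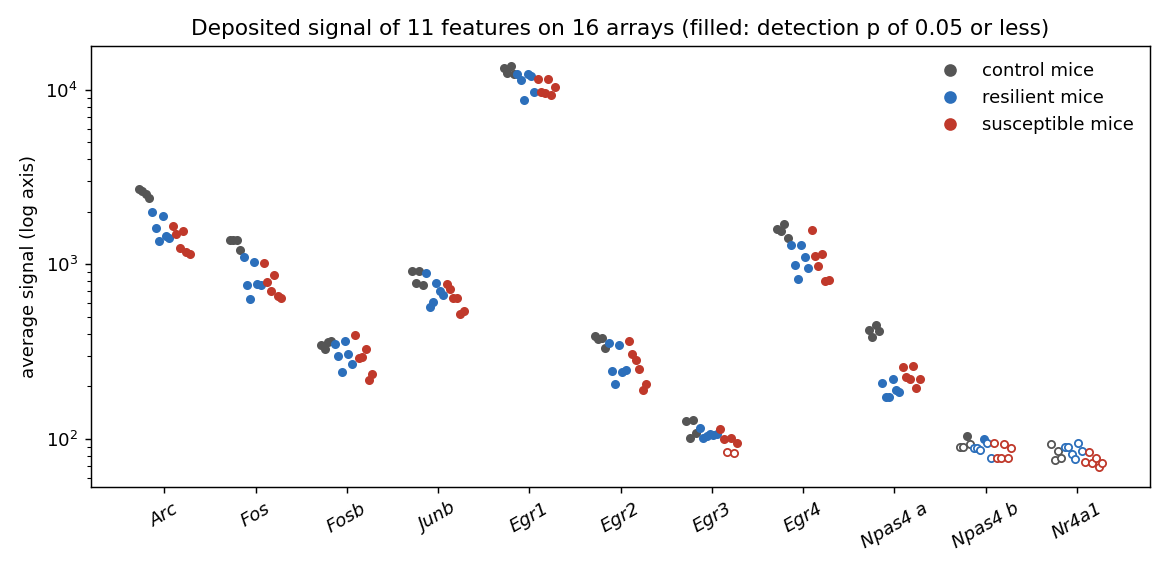
Deposited signal (log axis) of the 11 probes of the 10 genes on each of 16 arrays, coloured by mouse group, with filled points where the detection p is 0.05 or less. Egr1 lies between 8770 and 13722, the tested Npas4 probe (a) between 173 and 452 with all control arrays on top, and Nr4a1 and the other Npas4 probe (b) are open on nearly all arrays.

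Mean signal over all probes was 505 to 567 on control arrays, 376 to 552 on resilient and 380 to 502 on susceptible arrays, with 13648 to 14397 probes detected per array. Levels below are therefore log2 signals after quantile normalization, which gives every array the same distribution. In the deposited table the first 8 arrays hold all 4 control arrays and replicate 1 of each defeated group, and the last 8 hold replicates 2 and 3, which have lower mean signals; nothing labels this place as a batch. All groups were fitted together in limma, with Benjamini-Hochberg adjustment across the 8419 genes. A gene is called when its adjusted p is under 0.05, and each change below is a log2 difference with the standard error of the fit.

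Npas4 was the gene with the clearest order of groups: control mice were highest, susceptible mice lower and resilient mice lowest, on both sides. In the left mPFC its level was 8.40 and 8.39 in control mice, 7.99, 8.04 and 8.07 in susceptible mice and 7.49, 7.52 and 7.73 in resilient mice. In the right mPFC it was 8.48 and 8.54 in control mice, 7.92, 7.84 and 7.97 in susceptible mice and 7.62, 7.60 and 7.68 in resilient mice. All neighbours in this order differed past the test. The least stable step was that between susceptible and resilient right, called in 20 of 27 other settings.

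Fos, a partner in AP-1 dimers, and Arc were lower in defeated than in control mice on both sides. Fos read 10.10 and 10.21 in control left and 10.07 and 10.07 in control right. It read 9.79, 9.74 and 9.70 in resilient left and 9.78, 9.63 and 9.76 in resilient right. In susceptible mice it read 9.97, 9.87 and 9.81 on the left and 9.61, 9.61 and 9.54 on the right. Arc behaved alike. It read 11.08 and 11.13 in control left and 10.96 and 11.08 in control right. It read 10.63, 10.83 and 10.81 in resilient left and 10.66, 10.55 and 10.65 in resilient right. In susceptible mice Arc read 10.68, 10.79 and 10.62 on the left and 10.44, 10.44 and 10.38 on the right. For both genes the right mPFC of susceptible mice held the lowest 3 arrays of the 16.

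The zinc finger factors Egr2 and Egr4 had a different pattern, in which susceptible mice were highest on the left and lowest on the right. Egr2 read 8.47, 8.49 and 8.47 in susceptible left and 7.86, 7.82 and 7.86 in susceptible right. Control mice read 8.29 and 8.37 on the left and 8.23 and 8.22 on the right, and resilient mice read 8.18, 8.04 and 8.0 on the left and 8.22, 7.94 and 8.11 on the right. Egr4 read 10.60, 10.37 and 10.29 in susceptible left and 10.01, 9.88 and 9.87 in susceptible right. Control mice were at 10.30 and 10.38 on the left and 10.36 and 10.29 on the right, and resilient mice at 10.02, 10.12 and 10.08 on the left and 10.09, 10.14 and 10.09 on the right. The susceptible sides lay on opposite ends of the 16 arrays for Egr2, and for Egr4 the upper end was shared with control arrays.

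Fosb and Junb, the other AP-1 genes, also separated the sides of susceptible mice but changed little elsewhere. Fosb read 8.58, 8.41 and 8.52 in susceptible left and 8.23, 8.01 and 8.06 in susceptible right, and the other 10 arrays lay between 8.13 and 8.35. Junb read 9.56, 9.73 and 9.67 in susceptible left and 9.16, 9.27 and 9.29 in susceptible right, and the other 10 arrays lay between 9.30 and 9.64. Egr1 was flat: its 16 arrays spanned 0.23 on the log2 scale, from 13.35 to 13.57, and no group stood apart from all the others. Egr1 was brighter than 99.7% of probes, and no array value was at the highest signal of 37310.

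**Figure D2:**
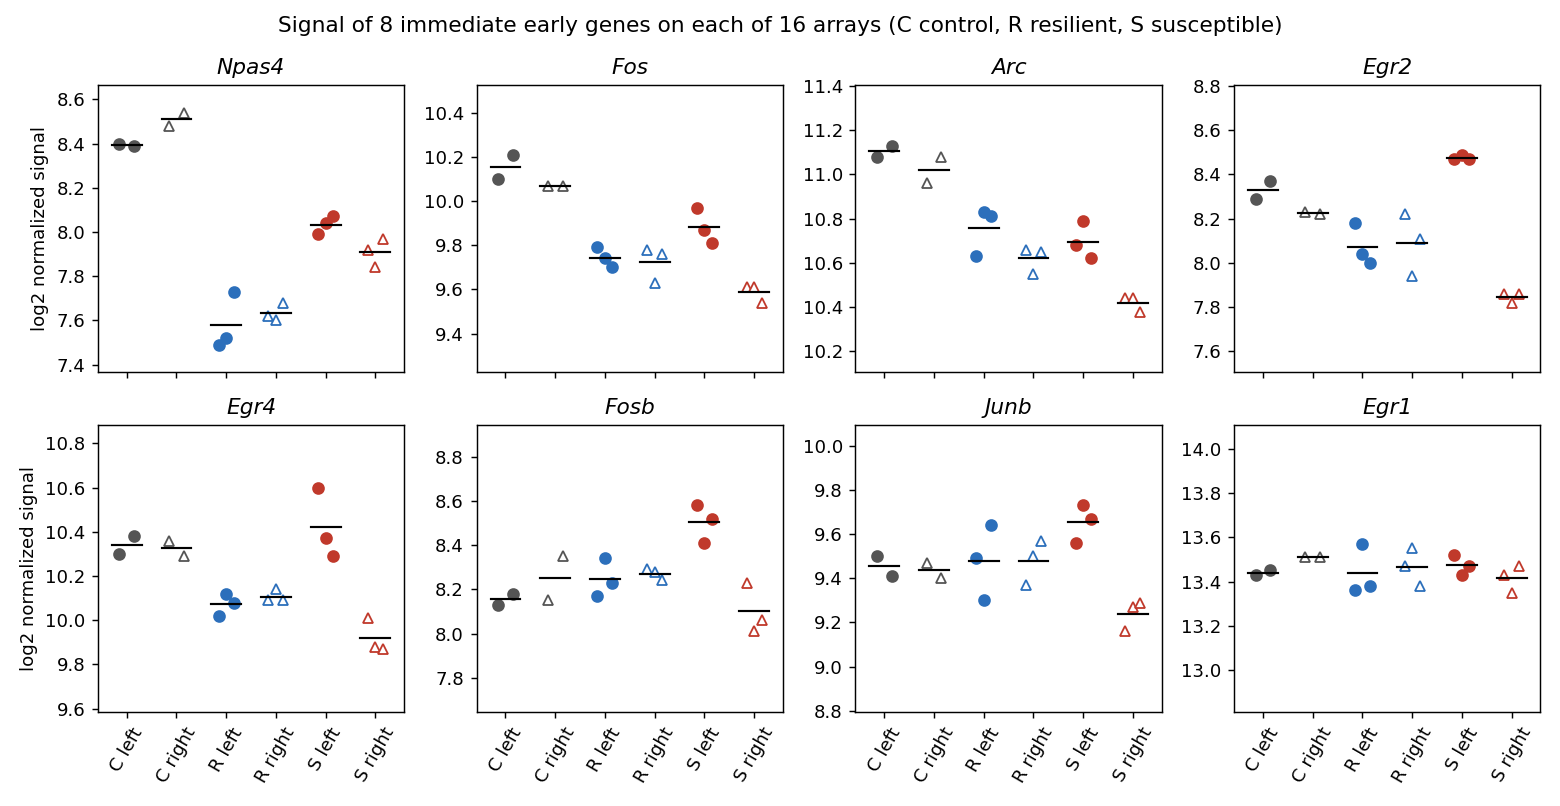
log2 normalized signal of the 8 tested genes on each of 16 arrays (points; circles left, triangles right) with group means (bars), each panel on its own axis of equal span. Npas4 steps down from control (8.39 to 8.54) through susceptible to resilient (7.49 to 7.73), Egr2 separates the susceptible sides (8.47 to 8.49 against 7.82 to 7.86), and Egr1 stays between 13.35 and 13.57.

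The comparison of each defeated group with control mice of the same side asks which genes differ after defeat. In resilient mice Npas4, Fos and Arc were lower on both sides, while Egr1, Fosb and Junb were within 0.09 of control. Npas4 decreased by 43.3% on the left (log2 change -0.82 ± 0.07, adjusted p = 4.9e-08) and decreased by 45.6% on the right (-0.88 ± 0.07, adjusted p = 1.06e-08), and on each side it ranked 1 among all genes lower than control. Fos changed by -0.41 ± 0.07 on the left (adjusted p = 0.000948) and -0.35 ± 0.07 on the right (adjusted p = 0.00464), and Arc by -0.34 ± 0.07 (adjusted p = 0.0087) and -0.40 ± 0.07 (adjusted p = 0.00219). Lower calls thus numbered 3 of 8 on the left, where 1.33% of all tested genes were called lower, and 3 of 8 on the right, where 1.08% were. Egr4 and Egr2 missed the threshold on the left, at -0.27 ± 0.08 (adjusted p = 0.0611) and -0.25 ± 0.07 (adjusted p = 0.063). On the right they were at -0.22 ± 0.08 (adjusted p = 0.148) and -0.14 ± 0.07 (adjusted p = 0.369).

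With 2 control arrays a side, some calls rested on a single array. Among the resilient calls, Arc in the left mPFC was lost when control left replicate 1 (-0.37, adjusted p = 0.106) or 2 (-0.32, adjusted p = 0.136) was left out. In the right mPFC it was lost when control right replicate 2 was left out (-0.35, adjusted p = 0.101). Fos was lost without control left replicate 2 (-0.36, adjusted p = 0.0653) or control right replicate 1 (-0.35, adjusted p = 0.0602) or 2 (-0.34, adjusted p = 0.0925). Egr2 on the left was called without resilient left replicate 1 (-0.31, adjusted p = 0.0238), resilient right replicate 1 (-0.25, adjusted p = 0.0453) or resilient right replicate 2 (-0.25, adjusted p = 0.0394). Egr4 on the left was called without susceptible left replicate 1 (-0.27, adjusted p = 0.03) or 3 (-0.27, adjusted p = 0.0468). Npas4 was called on both sides in all 27 other settings that were run, with changes from -1.12 to -0.62 on the left and -1.18 to -0.68 on the right. The largest drops came with neqc background correction and the smallest from the deposited normalized values, whose scale is narrower at low signals. Scaled to equal medians, Fos and Arc kept their direction but were not called (adjusted p 0.124 to 0.451). In these bulk samples, fewer cells of a type and less RNA per cell cannot be told apart.

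In susceptible mice the same 3 genes were lower than in control mice on both sides, and the AP-1 gene Fosb was higher on the left. On the left Arc changed by -0.41 ± 0.07 (adjusted p = 0.00137), Npas4 by -0.36 ± 0.07 (adjusted p = 0.00309), Fos by -0.27 ± 0.07 (adjusted p = 0.02) and Fosb by 0.35 ± 0.08 (adjusted p = 0.00862). These were 3 lower calls against a background of 2.33% and 1 higher call against 1.91%. On the right Arc changed by -0.60 ± 0.07 (adjusted p = 6.11e-06), Npas4 by -0.60 ± 0.07 (adjusted p = 4.84e-06), and Fos by -0.48 ± 0.07 (adjusted p = 6.55e-05). Egr4 changed there by -0.40 ± 0.08 (adjusted p = 0.00227) and Egr2 by -0.38 ± 0.07 (adjusted p = 0.0024), which made 5 lower calls of 8 against 2.58% of all genes. Egr2 and Egr4 were 0.15 ± 0.07 and 0.08 ± 0.08 above control on the left, not called, and Junb was 0.19 ± 0.08 above on the left and -0.20 ± 0.08 on the right, not called either.

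Of the susceptible calls, Fos in the left mPFC was lost when control left replicate 1 (-0.33, adjusted p = 0.0847) or 2 (-0.22, adjusted p = 0.229) was left out, and without susceptible left replicate 2 (-0.27, adjusted p = 0.0664) or 3 (-0.24, adjusted p = 0.0823). It was also lost with the place in the table as a block (-0.22, adjusted p = 0.101). Fosb was lost when control left replicate 1 (0.32, adjusted p = 0.158) or 2 (0.38, adjusted p = 0.0553) was left out, and Npas4 in the left mPFC without the first of these (-0.36, adjusted p = 0.0652). Egr4 in the right mPFC was lost when control right replicate 1 was left out (-0.37, adjusted p = 0.0622). Scaled to equal medians, only Arc and Npas4 were called, on both sides, and Fosb was at 0.12 (adjusted p = 0.531). The comparisons of resilient and susceptible mice with control share the control arrays, so they are not independent of each other.

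Taken over both sides, 5 of the 8 genes were lower in defeated than in control mice, where 5.96% of all genes were called lower. Npas4 changed by -0.66 ± 0.05 (adjusted p = 1.74e-10), Arc by -0.44 ± 0.05 (adjusted p = 6.75e-07) and Fos by -0.38 ± 0.04 (adjusted p = 2.78e-06), and each was called in all 27 other settings. Egr4 at -0.20 ± 0.05 (adjusted p = 0.00787) was lost without control left replicate 2 (adjusted p = 0.0628) or control right replicate 1 (adjusted p = 0.0621). Egr2 at -0.16 ± 0.05 (adjusted p = 0.0297) was lost without any 1 of the 4 control arrays (adjusted p 0.0749 to 0.137). With the place in the table as a block, which leaves only the first 8 arrays to compare with control mice, Egr4 was at -0.15 (adjusted p = 0.167) and Egr2 at -0.10 (adjusted p = 0.387). Within those first 8 arrays the change of Npas4 from control was -0.91 in resilient left, -0.89 in resilient right, -0.41 in susceptible left and -0.59 in susceptible right. In the same order Arc changed by -0.47, -0.36, -0.42 and -0.58, and Fos by -0.36, -0.29, -0.19 and -0.46. Each of these values came from 1 defeated array and 2 control arrays.

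**Figure D3:**
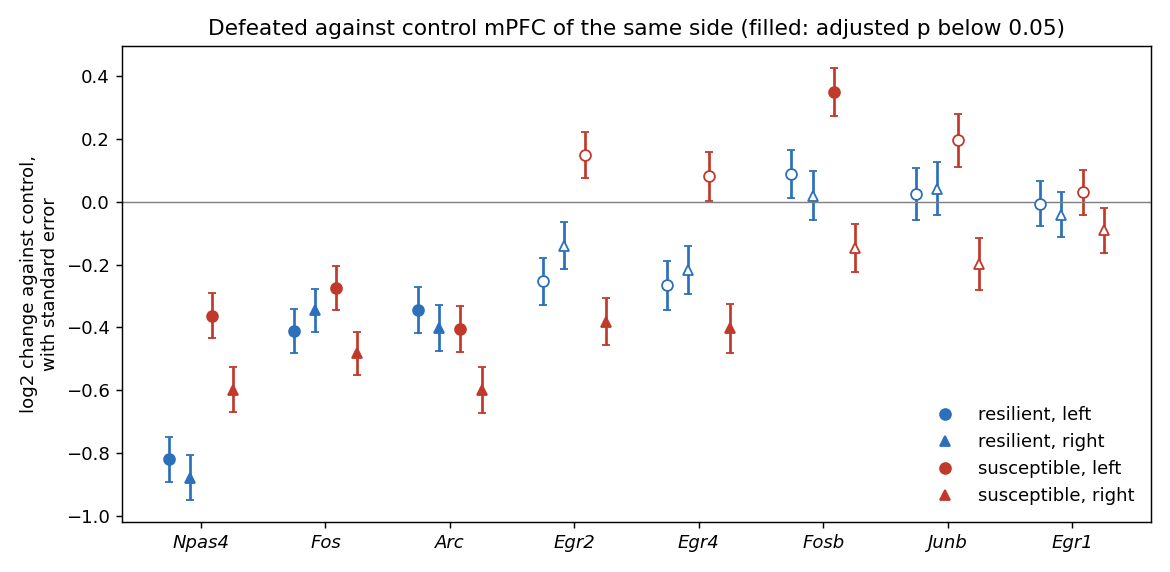
log2 change of each gene in resilient (blue) and susceptible (red) mice against control mice of the same side, with the standard error of the fit; circles are left, triangles right, and filled symbols have an adjusted p below 0.05. Npas4, Fos and Arc are filled on both sides of both groups, Egr2 and Egr4 only in the right mPFC of susceptible mice, and Fosb only in their left mPFC (0.35), while Egr1 stays within 0.09 of 0.

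The comparison of the sides asks whether activity genes differ between the left and right mPFC of the same kind of mice. In susceptible mice 6 of the 8 genes were higher on the left, where 2.77% of all genes were called higher. Egr2 was higher by 55.1% (log2 left/right 0.63 ± 0.07, adjusted p = 1.98e-07), and Egr4 by 41.3% (0.50 ± 0.07, adjusted p = 1.65e-05). Junb was higher by 32.8% (0.41 ± 0.07, adjusted p = 0.000609) and Fosb by 32.4% (0.41 ± 0.07, adjusted p = 0.000303). Fos at 0.29 ± 0.06 (adjusted p = 0.00304) and Arc at 0.28 ± 0.07 (adjusted p = 0.00929) were called too. Npas4 at 0.12 ± 0.06 (adjusted p = 0.339) and Egr1 at 0.06 ± 0.06 (adjusted p = 0.734) were not. The median change of the 8 genes was 0.35, against 0.00 for all genes.

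Arc was lost without susceptible left replicate 2 (0.23, adjusted p = 0.0785) or susceptible right replicate 3 (0.25, adjusted p = 0.0526), and the other 5 were called whichever single array was left out. When arrays were scaled to equal medians instead of equal distributions, the 6 differences kept their direction, at 0.19 to 0.57, but none passed (adjusted p 0.0936 for Egr2 to 0.982 for Arc and Fos). Within the first 8 arrays, with 1 array a side, left minus right was 0.62 for Egr2, 0.59 for Egr4, 0.39 for Junb, 0.35 for Fosb, 0.35 for Fos and 0.23 for Arc. Within the last 8, with 2 a side, it was 0.64, 0.45, 0.42, 0.43, 0.27 and 0.30 for the same genes.

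In resilient mice and in control mice 0 of the 8 genes differed between the sides by limma. Of all genes 0.0356% were called in either direction in resilient mice and 0.0119% in control mice. An unadjusted p under 0.05 was found for 368 genes and 1 of the 8 (Arc, 0.14 ± 0.07) in resilient mice and for 420 genes and 0 of the 8 in control mice. The differences ran from -0.05 for Npas4 to 0.14 for Arc in resilient mice and from -0.11 for Npas4 to 0.10 for Egr2 in control mice. For Egr2 the 95% interval of left minus right was -0.15 to 0.13 in resilient mice and -0.06 to 0.27 in control mice, both below the 0.50 to 0.77 of susceptible mice.

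**Figure D4:**
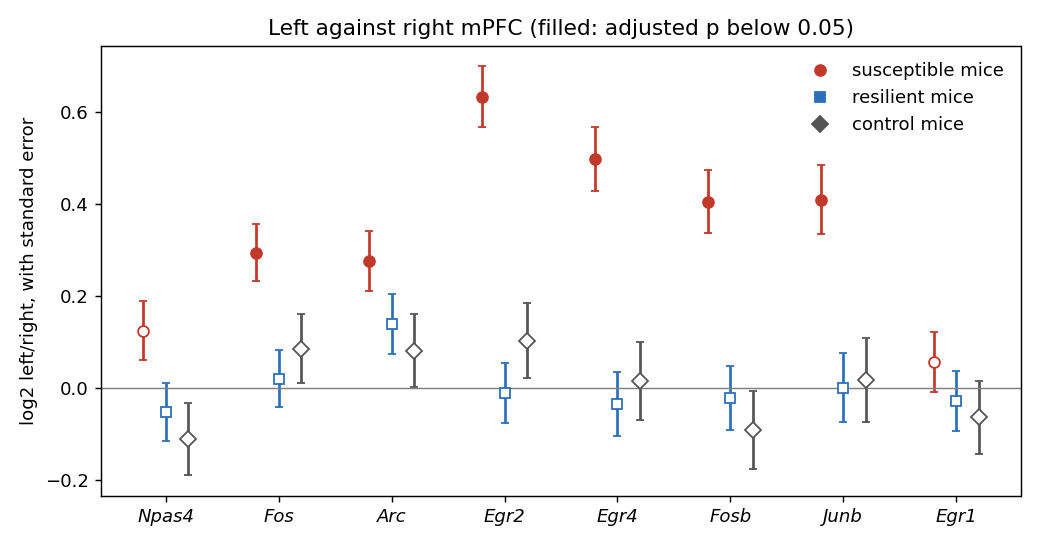
log2 left/right of each gene in susceptible (red circles), resilient (blue squares) and control mice (grey diamonds), with the standard error of the fit; filled symbols have an adjusted p below 0.05. Susceptible mice reach 0.63 for Egr2 and 0.50 for Egr4, and all resilient and control values lie between -0.11 and 0.14.

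The difference between these side differences was tested directly. The left/right difference was larger in susceptible than in control mice for 3 of 8 genes, where 1.24% of all genes were called higher. These were Egr2 by 0.53 ± 0.10 (adjusted p = 0.0028), Fosb by 0.50 ± 0.11 (adjusted p = 0.00837) and Egr4 by 0.48 ± 0.11 (adjusted p = 0.0102). It was larger than in resilient mice for 4 of 8, where 1.03% of all genes were. These were Egr2 by 0.64 ± 0.09 (adjusted p = 8.93e-05), Egr4 by 0.53 ± 0.10 (adjusted p = 0.00156), Fosb by 0.43 ± 0.10 (adjusted p = 0.0139) and Junb by 0.41 ± 0.11 (adjusted p = 0.0345). Resilient and control mice did not differ past the test for any of the 8 by limma, with a background of 0% of all genes and an unadjusted p under 0.05 for 329 genes, 0 of them among the 8. Arc, Fos and Npas4, which were lower after defeat on both sides, were not called in any of these tests: against control mice their side difference was larger by 0.19 ± 0.10, 0.21 ± 0.10 and 0.24 ± 0.10.

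Against control mice, Fosb was lost without control left replicate 1 (0.47, adjusted p = 0.0709) or control right replicate 2 (0.40, adjusted p = 0.121). Egr4 was lost without control left replicate 1 (0.44, adjusted p = 0.0958) or control right replicate 1 (0.45, adjusted p = 0.0876). Junb, at 0.39 ± 0.12 (adjusted p = 0.082), passed without resilient left replicate 2 (adjusted p = 0.0484) or 3 (adjusted p = 0.0488). Against resilient mice, the Junb call was lost without any 1 of 7 arrays, namely resilient left replicates 1 and 2, resilient right 2 and 3, susceptible left 2 and 3 and susceptible right 1 (0.32 to 0.41, adjusted p 0.0526 to 0.138). It was also lost with neqc background correction (0.45, adjusted p = 0.106), in a fit of only the groups compared (0.41, adjusted p = 0.0614) and with median scaling (0.39).

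Susceptible and resilient mice were also compared on each side, with no control array in the difference. On the left 4 of the 8 genes were higher in susceptible mice, against 0.855% of all genes. These were Npas4 by 0.46 ± 0.06 (adjusted p = 3.57e-05), Egr2 by 0.40 ± 0.07 (adjusted p = 0.000375), Egr4 by 0.35 ± 0.07 (adjusted p = 0.00301) and Fosb by 0.26 ± 0.07 (adjusted p = 0.0388). On the right only Npas4 was, by 0.28 ± 0.06 (adjusted p = 0.029), against 0.261% of all genes, and the other 7 lay between -0.24 and -0.05 and were not called. An unadjusted p under 0.05 in limma was found there for 7 of the 8, against 1072 of the 8419 genes tested. Among these Npas4 was higher in susceptible mice, and Arc, Fos, Fosb, Junb, Egr2 and Egr4 were lower. Arc differed little on the left (-0.06 ± 0.07, 95% interval -0.20 to 0.07).

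The smaller of these calls were the least stable. Fosb on the left was lost without control left replicate 1 or 2 (adjusted p = 0.0513 for each), resilient left replicate 1 (0.22, adjusted p = 0.15) or 3 (0.25, adjusted p = 0.121). It was also lost without susceptible left replicate 1 (0.22, adjusted p = 0.172) or 3 (0.25, adjusted p = 0.12). Cyclic loess (0.25, adjusted p = 0.0532), neqc background correction (0.33, adjusted p = 0.0881), array weights (0.24, adjusted p = 0.0694) and a fit of only the groups compared (0.26, adjusted p = 0.0633) lost it too. With median scaling all 4 left calls were lost, with Npas4 at 0.41 (adjusted p = 0.0698), Egr2 at 0.34, Egr4 at 0.29 and Fosb at 0.21. Npas4 on the right was lost without resilient right replicate 1, 2 or 3 (0.27, 0.26 and 0.30, adjusted p 0.0582 to 0.0932) and susceptible right replicate 1 (0.28, adjusted p = 0.0866) or 3 (0.25, adjusted p = 0.135). It was also lost in a fit of only the groups compared (0.28, adjusted p = 0.0648) and with median scaling (0.25). Egr2 on the right, at -0.24 ± 0.07 (adjusted p = 0.0896), was called without resilient right replicate 2 (-0.32, adjusted p = 0.0205).

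Other genes of the same response moved in part with these. Of 34 other rapid response genes, 31 were on the array and 19 were tested. Dusp1, a phosphatase that inactivates MAP kinases, was lower than control in resilient left (-0.47 ± 0.07), resilient right (-0.45 ± 0.07), susceptible left (-0.43 ± 0.07) and susceptible right (-0.51 ± 0.07). In resilient left the growth arrest genes Gadd45g (-0.30 ± 0.07) and Gadd45b (-0.29 ± 0.08) were lower as well, which made 3 of 19 lower there, where 1.33% of all genes were. In resilient right (1.08% of all genes lower), susceptible left (2.33%) and susceptible right (2.58%) Dusp1 was the only 1 of the 19 lower. The shear stress factor Klf2 was the only higher call, in susceptible left (0.23 ± 0.07), where 1.91% of all genes were higher. Between the sides of susceptible mice 3 of 19 were higher on the left, against 2.77% of all genes. These were Klf2 by 0.34 ± 0.06, the clock gene Per1 by 0.31 ± 0.08 and Dusp1 by 0.24 ± 0.06. Of the 19, 0 were lower, and the median of the 19 was 0.05. Gadd45b at -0.16 ± 0.05 and Gadd45g at -0.16 ± 0.05 were also lower in defeated mice over both sides, as was Dusp1, which made 3 of 19, against 5.96% of all genes.

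Delayed response genes, which are induced later and mostly act outside the nucleus, were tested for 23 of 30. Between the sides of susceptible mice 7 were higher on the left and 1 lower, where 2.77% of all genes were higher and 2.45% lower. Their median was 0.14, against 0.00 for all genes. Pdyn, the prodynorphin precursor of opioid peptides, led with 0.44 ± 0.06, followed by the clock-linked repressor Bhlhe40 at 0.43 ± 0.07 and the scaffold gene Grasp at 0.40 ± 0.06. In the right mPFC of susceptible mice 5 of 23 were lower than control, against 2.58% of all genes, among them Pdyn (-0.40 ± 0.07), Bhlhe40 (-0.37 ± 0.08) and the secreted peptide precursor Vgf (-0.36 ± 0.07), and 0 were higher. In their left mPFC Grasp was higher (0.32 ± 0.07) and the potassium channel gene Kcna1 lower (-0.46 ± 0.07), where 1.91% of all genes were higher and 2.33% lower. Resilient mice had 2 lower on the left, Rgs4 (-0.30 ± 0.07) and Kcna1 (-0.28 ± 0.07), against 1.33% of all genes. They had 2 lower on the right, Nrn1 (-0.29 ± 0.06) and Dusp6 (-0.27 ± 0.07), against 1.08%.

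Of 41 upstream regulators, genes for the kinases, channels and factors that drive these promoters, 22 were tested. Map2k1, a kinase of the ERK pathway, was lower than control in all 4 defeated groups, by -0.38 ± 0.10 in resilient left, -0.58 ± 0.10 in resilient right, -0.38 ± 0.10 in susceptible left and -0.49 ± 0.10 in susceptible right. Camkk2, a calcium-dependent kinase, was lower in resilient left (-0.51 ± 0.09) and susceptible left (-0.38 ± 0.09). In susceptible right Prkar1b, a regulatory subunit of protein kinase A, was lower (-0.34 ± 0.08), and in susceptible left the T-type calcium channel gene Cacna1h was higher (0.32 ± 0.08). That made 2, 1, 2 and 2 of 22 lower in these 4 groups, in the order given for Map2k1, and 0, 0, 1 and 0 higher. In the same order 1.33%, 1.08%, 2.33% and 2.58% of all genes were lower and 1.37%, 1.18%, 1.91% and 2.3% higher. Over both sides 2 were higher and 3 lower, against 5.27% and 5.96% of all genes. Between the sides of susceptible mice the factor Mef2c (0.29 ± 0.06) and Cacna1h (0.26 ± 0.07) were higher on the left, against 2.77% of all genes. The median of the 22 was 0.02. Of 6 tested corepressors and dimer partners, 0 were called between these sides, and over both sides Arnt2, a dimer partner of Npas4, was lower in defeated mice (-0.27 ± 0.06).

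Cell type markers moved along the same comparisons. Between the sides of susceptible mice, where 2.77% of all genes were higher on the left and 2.45% lower, all 4 tested upper-layer neuron markers were higher on the left (median 0.87, summed signal 2600 to 2652 on the left and 1397 to 1507 on the right). Control mice read 2099 to 2278 and resilient mice 1854 to 2123 over both sides. All 4 meningeal markers were higher on the left (median 0.74, summed signal 1591 to 1690 against 1009 to 1051). All 9 oligodendrocyte markers were lower (median -0.58, 23051 to 23301 against 34231 to 34666), as were 5 of 8 markers of layer 6 and 6b neurons (median -0.37, 11368 to 12081 against 15720 to 16774). All 3 tested genes of the striatal list (Drd1, Ppp1r1b and Rgs9) were lower on the left (median -0.37, 1874 to 1959 against 2528 to 2625). Whether their signal came from striatal tissue or from cortical cells was not tested. Of 3 general excitatory neuron markers 0 were called (18438 to 19568 against 16878 to 18348). Of 6 interneuron markers 1 was higher and 1 lower, and 1 of 2 red blood cell markers was higher. Excitatory neurons express these activity genes, and the part of these marker differences in the side differences of the 6 genes was not tested.

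Against control mice, layer 6 and 6b markers were higher in resilient left (4 of 8, summed signal 14946 to 15145 against 12224 to 12599), resilient right (6 of 8, 15370 to 15755 against 11634 to 11895) and susceptible right (6 of 8), with 0 higher and 1 lower in susceptible left. Of all genes 1.37%, 1.18% and 2.3% were higher in the first 3 of these, and 1.91% in susceptible left. In resilient left, resilient right, susceptible left and susceptible right 1.33%, 1.08%, 2.33% and 2.58% were lower. Striatal markers were higher in resilient left, resilient right and susceptible right (3 of 3 in each), and in susceptible left 0 of 3 were called. Both tested red blood cell markers were higher in susceptible mice on either side (summed signal 7384 to 10027 against 4314 to 4612 in control mice) and 1 of them in resilient mice on either side. Interneuron markers were lower for 1 or 2 of 6 in each group, and 0 of 3 excitatory neuron markers were called in any group. Upper-layer markers were lower in susceptible right (4 of 4, median -0.59, summed signal 1397 to 1507 against 2260 to 2278) and for 1 of 4 in resilient mice on either side. In susceptible left 2 of 4 were higher. Meningeal markers were lower in susceptible right (4 of 4, median -0.54, 1009 to 1051 against 1402 to 1418), higher in susceptible left (4 of 4, median 0.42) and higher for 1 of 4 in resilient left. Oligodendrocyte markers were lower in susceptible left (9 of 9) and higher for 1 of 9 in resilient left, 3 in resilient right and 3 in susceptible right. Of 6 microglia markers 1 was lower in each of resilient left, resilient right and susceptible right. In addition 1 of 4 astrocyte markers was lower in susceptible right, and 1 of 3 endothelial markers was higher in susceptible left. The part of these marker differences in the changes of the 8 genes from control was not tested.

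Between susceptible and resilient left mPFC, where 0.855% of all genes were higher and 1.52% lower, upper-layer markers were higher in susceptible mice (4 of 4, median 0.37), as were both red blood cell markers (median 0.40). Oligodendrocyte (9 of 9, median -0.65), striatal (3 of 3, median -0.50) and layer 6 and 6b markers (5 of 8, median -0.28) were lower. In addition 1 of 4 meningeal and 1 of 3 endothelial markers were higher, and of 6 interneuron markers 1 was higher and 1 lower. On the right, where 0.261% of all genes were higher and 0.57% lower, upper-layer (3 of 4, median -0.45) and meningeal markers (4 of 4, median -0.56) were lower. There 1 of 6 interneuron markers was higher, and 0 of 9 oligodendrocyte markers were called. Their part in the differences of Npas4, Egr2, Egr4 and Fosb was not tested.

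The 5 genes whose level over the 16 arrays was most like the mean of the 8 tested genes, each scaled to equal spread, were Ddit4l (Pearson r = 0.93), Igfbp2 (0.92), Stard8 (0.91), Pdzrn3 (0.91) and Gcnt2 (0.91). They were picked as the highest of all tested genes over the same 16 arrays, so the values are a description; Stard8 is also on the upper-layer list. Ddit4l, for example, had a mean level of 9.07 in susceptible left and 8.47 in susceptible right, with 8.87 and 8.86 in control left and right and 8.60 and 8.64 in resilient left and right.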

How the data were processed

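RNA from both sides of the mPFC of control, resilient and susceptible mice had been hybridized to 16 arrays. The deposited intensity of a probe is its mean bead signal on a linear scale (51.9 to 37310), read by the authors in GenomeStudio 1.0.6. The deposited detection score is a fraction from 0 to 1, and the detection p was taken as 1 minus it. The deposited log2 values, normalized by the authors with lumi (version and method not given in the sources used here), served as an alternative. Gene symbols came from the platform annotation: 23978 probes had 1 symbol and 1719 had none.

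Intensities were taken to log2, quantile normalized and kept where the detection p was 0.05 or less on all 16 arrays (11922 probes). The brightest probe stood for a gene. limma 3.58.1 (R 4.3.3) fitted 6 groups with 10 residual degrees of freedom, after a test on simulated data, and p-values were adjusted by Benjamini-Hochberg. Named genes were all 10 members, of each other list at most the 3 with the largest called change in a comparison, and the 5 most correlated genes. The members and lists were chosen with earlier results of these data known. Alternatives were other normalizations, filters, probe rules, variance models and blocks, and leaving out each array. No arrays were identical, and their number limits the precision. Promoters came from RefSeq.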

Additional observations from a re-analysis of the deposited data

Results flagged for a closer look

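The left/right difference of 3 genes differed between susceptible and control mice by limma's test of the difference itself: Egr2 by 0.53, Fosb by 0.50 and Egr4 by 0.48. Against resilient mice it differed for 4 genes, Egr2 by 0.64, Egr4 by 0.53, Fosb by 0.43 and Junb by 0.41, the last of which was called in 17 of 27 other settings. Upper-layer, meningeal and oligodendrocyte markers differed between the same sides, and their part was not tested.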

How the results depend on the processing

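The 13 counts of called genes were recomputed under 27 other settings, which gave 326 values within 1.5 times of the reported count and 25 outside it. No called result changed sign. Of 38 called gene results, 8 were called in all 27 settings: Npas4 in both resilient comparisons with control, in susceptible right and over both sides, Arc in susceptible left, susceptible right and over both sides, and Fos over both sides. Of 66 others, 4 were called in some setting and 28 changed sign in some setting.

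Scaling arrays to equal medians moved the most. It left 0 genes between the susceptible sides, 1 in resilient left and 1 in resilient right against control, 2 in susceptible left and 2 in susceptible right against control, 0 and 0 between susceptible and resilient left and right, and 0 and 0 for the side differences of susceptible mice against control and resilient mice. It also shifted the median of all genes against control, by -0.16 in resilient left, -0.12 in resilient right, -0.20 in susceptible left and -0.14 in susceptible right. Fosb in susceptible left fell to 0.12. The cause of the lost calls was not tested. Cyclic loess and array weights each gave 5 in resilient left, a fit of only the groups compared gave 0 between susceptible and resilient right, and the table place as a block gave 2 there and 3 for defeated against control.

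Leaving out 1 array gave 5 to 6 genes between the susceptible sides, 1 to 4 in resilient left, 1 to 3 in resilient right, 1 to 4 in susceptible left and 4 to 5 in susceptible right against control, 3 to 4 and 0 to 1 between susceptible and resilient left and right, 1 to 4 and 3 to 4 for the side differences against control and resilient mice, and 3 to 5 for defeated against control. The counts outside 1.5 times came without control left replicate 2 (resilient left, 1; susceptible left, 2; defeated, 3), control left replicate 1 (susceptible left, 1; side difference against control, 1), control right replicate 2 (resilient right, 1), control right replicate 1 (defeated, 3), or resilient or susceptible right replicate 1 or 3 (0).

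The labels do not tie same-numbered left and right arrays to the same mice, and their deviations correlated at 0.01 in control mice, 0.34, -0.02 and 0.06 in resilient mice and 0.19, 0.17 and 0.09 in susceptible mice. With so few arrays these correlations cannot decide whether same-numbered arrays are paired, and no fit that pairs the sides was run. The numbers were not taken to pair the samples. A block for the replicate number, shared by all groups, was also fitted, and it does not pair the sides within a group. With it the side difference of susceptible against control mice had 4 called genes instead of 3, with Junb at 0.39 (adjusted p = 0.0469). The other 12 counts stayed within 1.5 times. Egr3 and Nr4a1 were limited by signal near background.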
